A study of Mus musculus with 3 samples.

Results

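The 32 genes described here encode proteins of DNA replication and mitosis, and they were chosen by symbol out of the 28692 genes in the deposited matrices. Of these, 16 belong to S phase (the MCM helicase genes Mcm2, Mcm3, Mcm4, Mcm5, Mcm6 and Mcm7, then Pcna, Gins2, Tipin, Tyms, Rrm1, Rrm2, Dut, Hells, Uhrf1 and Slbp). The other 16 belong to G2 and mitosis (G2/M: Cdk1, Ccnb1, Ccnb2, Aurka, Aurkb, Plk1, Bub1, Mki67, Top2a, Birc5, Cenpf, Cenpe, Hmmr, Tpx2, Nusap1 and Ube2c). All 32 were found in the matrices and all had UMIs (unique molecular identifiers, by which copies of an RNA molecule are counted once).

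The series holds 3 single-cell RNA libraries of the stromal vascular fraction (what remains of fat once the floating adipocytes are removed) of inguinal white fat from C57BL/6 mice. The saline library came from mice given saline, the cold library from mice kept at 4 C for 3 days, and the CL library from mice given CL 316,243, a β3-adrenergic receptor agonist, at 1 mg/kg into the peritoneum for 3 days. Each treatment has 1 library, and the number, age and sex of its mice, and any injection of the cold mice, are not given in the sources used here. With no replicate there is no spread between animals to compare a difference with, so no p-value is given, and treatment, animal and preparation cannot be told apart.

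Barcodes with at least 500 detected genes and at most 15% mitochondrial UMIs were kept, 6271 saline, 3862 cold and 6705 CL cells, with median depths of 3242, 3624.5 and 3847 UMIs. Each cell took its class from a cluster named by lineage markers and made without cell cycle genes, so that a dividing T cell stays a T cell. Classes are called by their nearest type, as in "T cell-like" (short: T cells). The libraries differed in makeup: B and plasma cells were 26.2%, 38.2% and 3.53% of the saline, cold and CL cells, and monocytes and macrophages 19.6%, 9.71% and 61.2%. A level is the summed UMI count of a gene in a class, scaled to a common total of UMIs (CPM). Ratios are log2 values. Intervals in parentheses are 95% intervals of counting error alone. UMIs of a gene cluster in few cells, which these intervals ignore, so they understate the error. Cold and CL are both compared with the same saline library.

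The S-phase proteins copy the genome. The MCM proteins form the ring that opens the double helix, PCNA is the clamp that holds the polymerases, and Tyms, Rrm1, Rrm2 and Dut supply and clean the nucleotide pool. Genes of this kind are switched on by E2F factors when a cell leaves rest. The G2/M proteins act later: cyclin B with Cdk1 starts mitosis, Aurora kinases and Plk1 build the spindle, topoisomerase IIα untangles the chromosomes and Ki-67 coats them. Their genes are held off in resting cells by the DREAM complex, through a promoter element called CHR that often stands near CCAAT boxes bound by NF-Y. In fat, dividing cells are of interest because progenitors, macrophages and lymphocytes can all multiply in the tissue while it remodels.

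Promoter letters are shown first because the S-phase and G2/M genes differed in them as well as in the cells that hold their RNA. The stretches below run from 200 to 36 bases before the annotated start (RefSeq, build GRCm38.p6), 5′ to 3′ on the strand of the gene. Capitals mark E2F letters (TTTGGCGC, TTTCCCGC, TTTGCCGC or TTTCGCGC), CHR letters (TTTGAA) and CCAAT letters, each on either strand, where ATTGG is CCAAT read from the other strand. Overlapping matches run together in 1 block of capitals. Matches nearer the start lie outside the stretches, among them further CHR letters of Cdk1, Ccnb2 and Top2a. Mcm5 (chr8:75109309-75109473, plus strand) and Mcm6 (chr1:128359741-128359905, minus strand) stand for the helicase genes. Cdk1 (chr10:69352948-69353112, minus strand) and Ccnb2 (chr9:70421590-70421754, minus strand) stand for the mitotic kinase and its cyclin. Mki67 (chr7:135716415-135716579, minus strand) and Top2a (chr11:99024225-99024389, minus strand) are the 2 genes used to count dividing cells.
Mcm5: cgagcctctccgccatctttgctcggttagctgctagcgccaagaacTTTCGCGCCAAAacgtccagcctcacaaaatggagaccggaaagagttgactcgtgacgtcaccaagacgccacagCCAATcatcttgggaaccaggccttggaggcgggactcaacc
Mcm6: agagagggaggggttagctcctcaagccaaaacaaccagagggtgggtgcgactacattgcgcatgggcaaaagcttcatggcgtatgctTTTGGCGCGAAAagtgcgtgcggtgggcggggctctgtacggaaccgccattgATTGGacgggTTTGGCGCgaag
Cdk1: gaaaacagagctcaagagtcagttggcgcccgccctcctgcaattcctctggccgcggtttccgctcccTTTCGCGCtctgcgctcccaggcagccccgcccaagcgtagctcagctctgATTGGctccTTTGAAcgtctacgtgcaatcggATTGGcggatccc
Ccnb2: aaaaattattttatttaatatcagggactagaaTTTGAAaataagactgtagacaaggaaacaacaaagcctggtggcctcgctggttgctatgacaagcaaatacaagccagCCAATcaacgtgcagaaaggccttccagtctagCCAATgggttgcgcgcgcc
Mki67: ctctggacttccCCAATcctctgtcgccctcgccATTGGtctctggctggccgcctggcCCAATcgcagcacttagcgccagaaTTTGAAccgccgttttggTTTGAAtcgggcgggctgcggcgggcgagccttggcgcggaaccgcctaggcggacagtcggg
Top2a: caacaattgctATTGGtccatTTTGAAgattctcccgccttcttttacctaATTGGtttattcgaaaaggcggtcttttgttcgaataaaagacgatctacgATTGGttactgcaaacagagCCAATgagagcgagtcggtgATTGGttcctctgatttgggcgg

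Over windows of 300 bases (250 before to 50 after the start), 27 of the 32 genes had an entry, and Tpx2, Aurkb, Tipin, Mcm4 and Gins2 had none. E2F letters stood in 6 of 13 S-phase genes (Mcm3, Mcm5, Mcm6, Mcm7, Hells and Uhrf1) and in 1 of 14 G2/M genes (Cdk1), against 2.60% of all 27025 promoters. CHR letters showed the opposite split, in 9 of 14 G2/M genes (Cdk1, Ccnb2, Aurka, Plk1, Mki67, Top2a, Cenpf, Hmmr and Ube2c) and in 1 of 13 S-phase genes (Mcm2), against 20.2% of all promoters. CCAAT letters were in 12 of 14 G2/M and 10 of 13 S-phase genes, against 41.1%. The same 9 G2/M genes held CHR and CCAAT letters together, a pair found in 7.97% of all promoters. A match of letters is a description and not a measured binding site.

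Division genes were read most often in T cells, NK cells and type 1 and type 2 dendritic cells. The first count took cells with at least 1 UMI of Mki67 or Top2a. In the saline library these were 24.6% (18.6 to 31.4) of the type 1 dendritic cells, 21.2% (12.9 to 31.8) of the NK cells, 19.3% (15.1 to 23.99) of the type 2 dendritic cells and 17.4% (14.1 to 21.2) of the T cells. They were 4.96% (3.81 to 6.32) of the monocytes and macrophages, 3.04% (2.27 to 3.99) of the B and plasma cells and 2.23% (1.49 to 3.21) of the adipose stem and progenitor cells (ASPCs). Over all libraries, neutrophils, which do not divide once mature, had such a UMI in 2 of 80 cells (2.50%, 0.304 to 8.74) at a median depth of 1310 UMIs. Both were CL cells, the saline library held 3 neutrophils, and Ngp, Camp and Ltf, genes of immature neutrophils, were among the top genes of the cluster, so it is a weak reference for cells that do not divide. Endothelial cells had one in 2.08% (1.22 to 3.31) at a median of 2495 UMIs. The saline ASPCs, with a median depth of 6448 UMIs, had a share whose interval overlapped that of the endothelial cells.

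A stricter count asked for UMIs of at least 3 different G2/M genes, which single stray UMIs do not meet. Such G2/M-positive cells numbered 139 in the saline (2.22%), 169 in the cold (4.38%) and 136 in the CL library (2.03%). T cells supplied 36, 53 and 21 of them, and type 1 dendritic cells 32, 20 and 17. B and plasma cells supplied 17, 67 and 4, and ASPCs 7, 3 and 25. In the cold library B and T cells were 39.6% and 31.4% of all G2/M-positive cells, and in the CL library type 2 dendritic cells and ASPCs were the largest classes with 19.1% and 18.4%. No G2/M-positive cell was found among 308 plasmacytoid dendritic cells (which allows up to 0.974%), 160 Schwann cells (up to 1.88%) or 80 neutrophils (up to 3.75%). G2/M-positive cells were also deeper than their class, as in saline T cells with a median of 8242.5 UMIs, so shares were computed again with each cell thinned to 2000 UMIs.

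**Figure D1:**
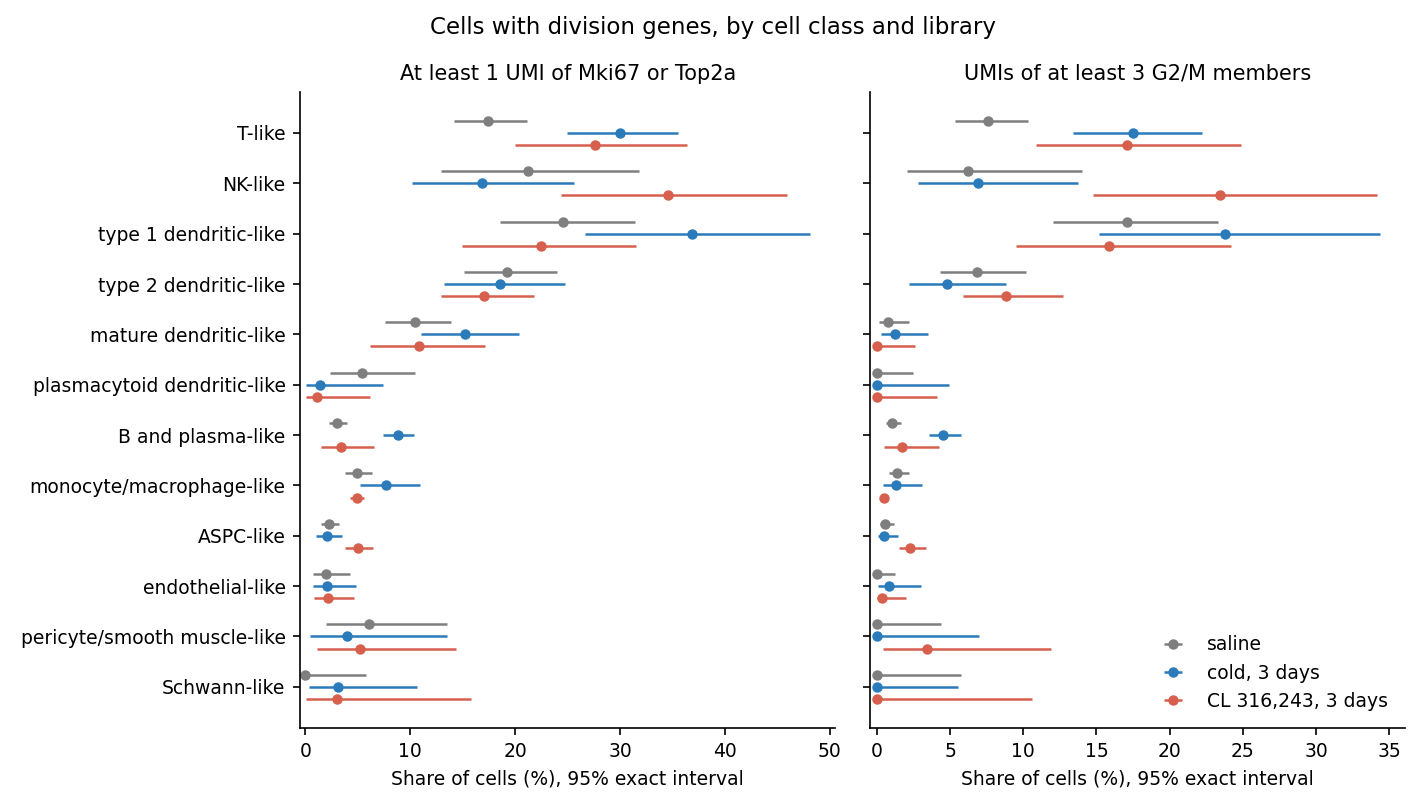
Percent of cells with a Mki67 or Top2a UMI and percent with at least 3 G2/M genes, by cell class (rows) and library (colour), where bars are exact 95% intervals of counting error. T, NK and both type 1 and type 2 dendritic cells lie to the right, and endothelial cells and ASPCs to the left.

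Mki67 or Top2a alone did not mark the same state in every class. Of the cells with such a UMI, those that also held at least 2 of the other 14 G2/M genes were 61.4% in type 1 dendritic cells (101 positive cells), 50% in T cells (208) and 44.1% in B and plasma cells (188). In monocytes and macrophages they were 13.1% (9.41 to 17.5, 291 cells). Mature dendritic cells stood lowest among the large classes, with 4.26% (1.17 to 10.54, 94 cells), and 69 of these 94 cells had Mki67 without Top2a. Mature dendritic cells thus had a UMI of either gene in 12.1% of cells over all libraries, but were G2/M-positive in 6 of 780 (0.769%). The positive mature dendritic cells had a median depth of 5615 UMIs and the positive B and plasma cells 5508.5.

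**Figure D2:**
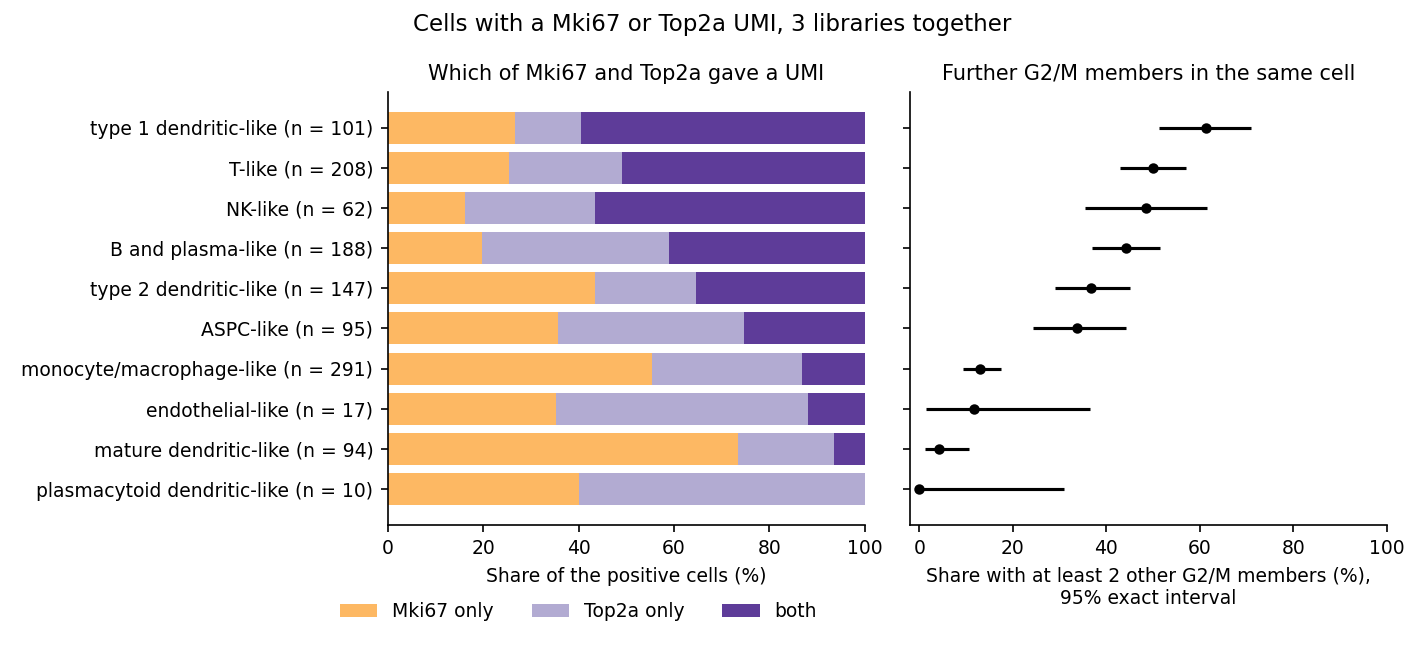
Cells with a Mki67 or Top2a UMI by class, all libraries together: the left panel stacks the percent with Mki67 alone, Top2a alone or both, and the right panel gives the percent with at least 2 of the other 14 G2/M genes, with exact 95% intervals of counting error. Type 1 dendritic cells are highest on the right at 61.4%, and mature dendritic cells have the longest bar of Mki67 alone, 69 of 94 cells.

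The genes followed their common sum across classes, G2/M genes more closely than S-phase genes. Levels were compared over 36 points (a class in a library, at least 50 cells each). The log level of Cdk1, Nusap1, Top2a, Ube2c and Cenpf each had a Pearson r of 0.97 with the summed members. Gins2 (0.62), Slbp (0.73) and Tipin (0.77) followed this sum least. Each gene is part of the sum, which can raise its r, most where it has many UMIs. The closer fit of G2/M genes was not tested apart from this overlap. The 36 points also share libraries, depth and classes, so the values are a description. Of all other genes with at least 100 UMIs, those most alike to the summed members were Smc2 (0.966), a condensin subunit, Ccna2 (0.966), the cyclin A gene, Cdca8 (0.964), a partner of Aurora B, Kif11 (0.962), a spindle motor, and Hist1h1b (0.962), a linker histone. By a mean over libraries with equal weight, T cells had the highest level of 14 of the 16 S-phase genes (Mcm2 and Slbp were highest in NK cells), and among the G2/M genes NK cells were highest for 10, T cells for 5 and type 1 dendritic cells for 1 (Aurka). The order differed between libraries. T cells were highest for 8 of the 16 G2/M genes in saline, 14 in cold and 0 in CL, and NK cells for 7, 0 and 15. Top2a was at 255, 147 and 556 CPM in NK cells of the saline, cold and CL libraries.

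S-phase genes were also read outside G2/M-positive cells. In saline T cells, the 36 G2/M-positive cells held 94.2% of the summed G2/M UMIs and 64.6% of the S-phase UMIs. In saline monocytes and macrophages, 17 of 1231 cells held 73.6% of the G2/M and 17.3% of the S-phase UMIs. The cells were picked by the G2/M genes themselves, so their larger part of the G2/M UMIs follows in part from the rule. Cells that were not G2/M-positive kept 538 CPM of summed S-phase genes in saline T cells, 253 CPM in monocytes and macrophages and 201 CPM in ASPCs. An S-phase sum in monocytes and macrophages was thus mostly read in cells that were not G2/M-positive.

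T cells held more of the replication and mitosis genes in the cold library than in the saline library, and the makeup of the class differed too. The share with a Mki67 or Top2a UMI was 17.4% (14.1 to 21.2) in saline, 30.03% (24.9 to 35.5) in cold and 27.6% (19.96 to 36.4) in CL. G2/M-positive cells were 7.56% (5.35 to 10.3), 17.5% (13.4 to 22.2) and 17.1% (10.9 to 24.9), so both treated libraries lay above saline with intervals that did not overlap. The log2 ratio of the first share was 0.78 (0.41 to 1.16) for cold over saline and 0.66 (0.17 to 1.16) for CL over saline. Thinned to 2000 UMIs, the shares were 19.4%, 24.5% and 32%, and the ratio for cold was 0.34 (-0.10 to 0.79), no longer apart from 0. The thinned ratio of G2/M-positive shares for cold was 0.75 (0.11 to 1.39). With at most 5% mitochondrial UMIs the CL ratio of the share turned to -0.12. Most T cells were lost at that setting, where the T cell cluster held 88 saline, 54 cold and 66 CL cells.

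At Leiden resolution 2 the T cells fell mainly into fine cluster 3, with Ikzf2, Icos and Ctla4 among its top genes, and fine cluster 26, with Tcf7 and Lef1, factors of resting T cells. Fine cluster 3 held 51.7%, 78.2% and 64.2% of the saline, cold and CL T cells, and fine cluster 26 held 48.1%, 20.5% and 35.8%. Within fine cluster 3, G2/M-positive cells were 11.4% (7.70 to 16.03) of 246 saline, 21.5% (16.5 to 27.3) of 237 cold and 21.5% (13.1 to 32.2) of 79 CL cells, where cold lay above saline. Its summed S-phase genes were at 1329, 2186 and 1907 CPM and its G2/M genes at 1525, 1757 and 1452 CPM. For cold over saline these were ratios of 0.72 (0.62 to 0.82) and 0.20 (0.11 to 0.30). In fine cluster 26, G2/M-positive cells were 8 of 229, 2 of 62 and 4 of 44, and the summed 32 genes had a ratio of -0.09 (-0.29 to 0.11) for cold and 0.62 (0.43 to 0.81) for CL. The cold ratio in fine cluster 26 was -0.53 (-0.80 to -0.27) for summed S-phase genes and 0.61 (0.30 to 0.91) for summed G2/M genes. The higher cold level of S-phase genes was thus read in fine cluster 3 alone, and that of G2/M genes in both fine clusters. Fine cluster 3 was also a larger part of the cold T cells.

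Among the 8 T-cell members with most UMIs, Dut, Mcm3 and Slbp had the largest ratios. Dut, which removes dUTP from the nucleotide pool, was at 137 CPM (118 to 157) in saline, 290.4 CPM (265 to 318) in cold and 209.8 CPM (171 to 254) in CL. Mcm3, a helicase subunit, was at 97.9 (82.6 to 115), 179 (159 to 201) and 165 CPM (132 to 205). For Dut all 3 intervals were separate, and for Mcm3 saline lay below both treatments. Slbp, which binds the stem loop of histone mRNA, was at 96.6 (81.4 to 114), 167 (148 to 188) and 159 CPM (126 to 199), again lowest in saline. Pcna was at 120.4 (103.3 to 139), 147 (129 to 167) and 182 CPM (146 to 223), where saline and cold overlapped and CL lay above saline. Mcm6 was at 114 (97.0 to 132), 142 (124 to 161) and 125 CPM (95.9 to 160.4), with all intervals overlapping.

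Top2a, the untangling enzyme, was at 218 CPM (195 to 244) in saline, 299 (273 to 327) in cold and 301 (254 to 353) in CL, higher in both treated libraries. Ube2c, which feeds the anaphase-promoting complex, was at 99.3 (83.9 to 117), 162 (143 to 183) and 123 CPM (94.1 to 158), higher in cold with CL between. Mki67 was at 307 (279 to 336), 358 (329.7 to 389) and 323 CPM (275 to 377), and its intervals overlapped. The log2 ratios for cold over saline were 1.09 (0.85 to 1.33) for Dut, 0.87 (0.58 to 1.17) for Mcm3, 0.45 (0.25 to 0.66) for Top2a and 0.22 (0.04 to 0.40) for Mki67. All 32 members passed the filter of 10 UMIs, all 32 were higher in cold, and 7 were at least 2-fold higher (Tipin, Tyms, Rrm2, Dut, Cdk1, Ccnb2 and Birc5), where 5.14% of all 9726 genes were. Median ratios were 0.67 for S-phase and 0.71 for G2/M genes, against 0.06 over all genes. At most 5% mitochondrial UMIs took the median of the 32 to -0.025, where the T cell cluster held 88 saline and 54 cold cells.

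In T cells 28 of 32 members were higher in CL than in saline, with medians of 0.61 for S-phase and 0.21 for G2/M genes. Gins2, a part of the replicative helicase, was the only member at least 2-fold higher (1.01, 0.13 to 1.85), while 8.08% of all genes were. The members' share past 2-fold was thus no higher than the background there. T cells of the CL library were few, 123 against 476. The median of the 32 turned to -0.35 with at most 5% mitochondrial UMIs, where the T cell cluster held 66 CL and 88 saline cells.

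Other replication genes were also higher in cold T cells. Of 27 licensing and fork genes 26 were higher and 4 at least 2-fold, with a median of 0.65. Gmnn, the geminin gene that limits origin firing, was at 48.3, 98.04 and 92.8 CPM in saline, cold and CL. Of 28 other mitotic genes 24 were higher, with a median of 0.44. The cyclin and E2F list of G1/S had a median of 0.03, and the list of CDK inhibitors and quiescence genes -0.14. In that list Klf2, a factor of resting lymphocytes, was at 428, 168 and 256 CPM, lower in cold by a log2 ratio of -1.35 (-1.56 to -1.14).

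Marker RNA of the 110 G2/M-positive T cells was compared with that of 548 other T cells, with each marker read after thinning. Gzmb, the cytotoxic granule protease, had a UMI in 15.45% (9.27 to 23.6) against 4.56% (2.97 to 6.66), and Il2ra, the high-affinity IL-2 receptor chain, in 31.8% (23.3 to 41.4) against 14.8% (11.9 to 18.0). Lef1, a factor of naive T cells, was in 9.09% (4.45 to 16.1) against 21.2% (17.8 to 24.8). In none of these 3 did the intervals overlap, though for Lef1 the CL library alone went the other way (14.3% against 9.26%). Foxp3, the regulatory T cell factor, was nearly equal at 13.6% (7.84 to 21.5) and 13.5% (10.8 to 16.7). Il2ra was higher in the G2/M-positive cells in all 3 libraries taken alone, at 27.8% against 13.5% in saline, 34.0% against 15% in cold and 33.3% against 20.4% in CL.

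NK cells, a class of 80, 101 and 81 cells, held more of the members in the CL library. G2/M-positive cells were 6.25% (2.06 to 13.99) in saline, 6.93% (2.83 to 13.8) in cold and 23.5% (14.8 to 34.2) in CL, the last with an interval apart from both others. The thinned shares of G2/M-positive cells were 8.20%, 6.74% and 26.9%. At resolution 2, 20, 11 and 6 of these cells (25%, 10.9% and 7.41%) formed a cluster of type 2 innate lymphoid cells, led by Gata3 and Areg, with 0 G2/M-positive cells. In the remaining NK cluster the G2/M-positive shares were 8.33% (2.76 to 18.4), 7.78% (3.18 to 15.4) and 25.3% (15.99 to 36.7). Saline and CL overlap there, and the ratio for CL over saline was 1.60 (0.27 to 2.94) for the share, 0.72 (0.52 to 0.93) for summed G2/M and 1.03 (0.78 to 1.28) for summed S-phase genes. Summed G2/M genes stood at 1137, 809.6 and 2233 CPM, and S-phase genes at 778, 839 and 1715 CPM. For CL over saline, 29 of 32 members passed the filter, and 20 of the 29 were at least 2-fold higher, against 15.8% of all genes. Gzma, a cytotoxic protease, had a UMI in 80.6% (62.5 to 92.5) of 31 G2/M-positive NK cells and in 55.9% (48.5 to 63.2) of 186 others, with overlapping intervals. The others include type 2 innate lymphoid cells, while all 31 G2/M-positive cells sat in the remaining NK cluster, which Gzma led.

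**Figure D3:**
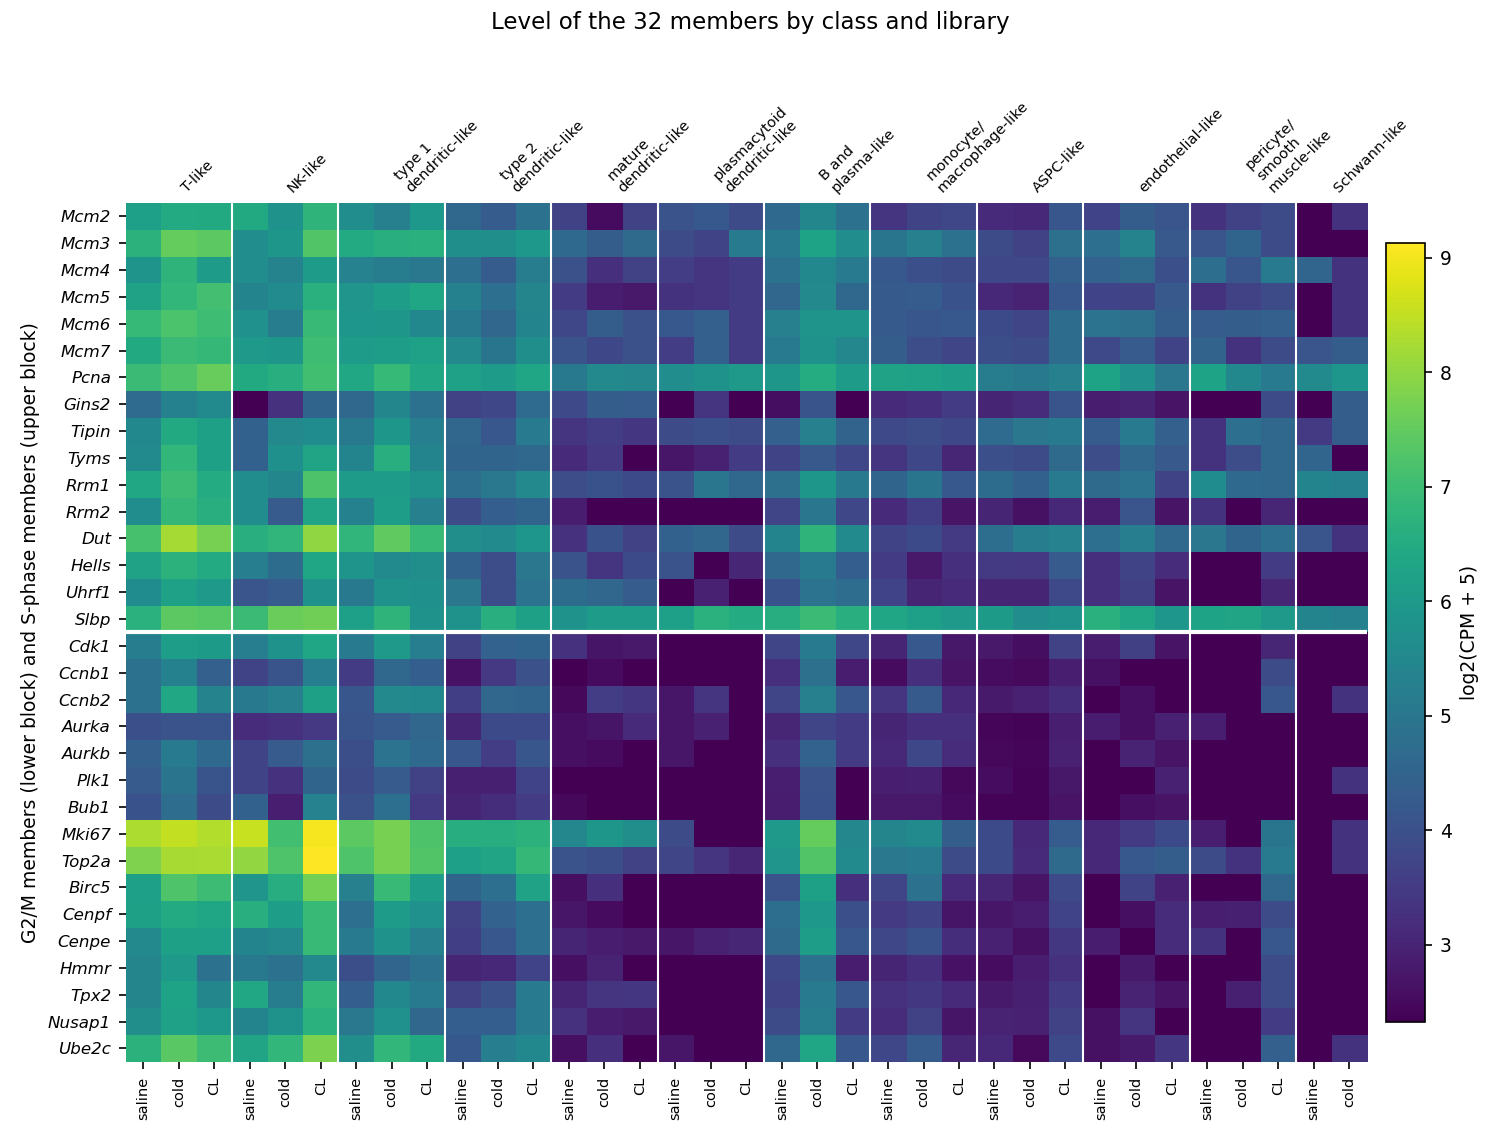
Level of each of the 32 genes (rows, S-phase above and G2/M below the white line) as log2(CPM + 5), in colour, by class and library (columns), for points of at least 50 cells. T and NK cells are bright for Mki67 and Top2a, B and plasma cells are brightest in the cold column, and Pcna and Slbp are lit in nearly all classes.

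B and plasma cells had a higher share for cold, and much of the difference sat in a single small cluster. The share with a Mki67 or Top2a UMI was 3.04% (2.27 to 3.99) in saline, 8.82% (7.42 to 10.4) in cold and 3.38% (1.47 to 6.54) in CL, with cold apart from saline and a log2 ratio of 1.54 (1.08 to 1.99). G2/M-positive cells were 1.03% (0.604 to 1.65), 4.55% (3.54 to 5.74) and 1.69% (0.462 to 4.26). Cluster 25, with Pou2af1, Bfsp2 and Nuggc among its top 10 genes, held 4 saline, 64 cold and 1 CL cells. Of the 64 cold cells 41 were G2/M-positive (64.1%, 51.1 to 75.7), and they made up most of the 67 in the class. Without cluster 25, an alternative added after the data were seen, the shares with Mki67 or Top2a were 3.05%, 5.74% and 3.39%, and the ratio for cold was 0.91. With cluster 25 left out and cells thinned, the shares were 5.13% in saline and 4.87% in cold, and the ratio turned to -0.074. Thinned with cluster 25 kept, it was 0.69 (0.09 to 1.30), and 0.98 (0.00 to 1.95) for G2/M-positive cells. Markers of lymph node stroma were read in the stromal and endothelial cells, and 3 of the 6 were lowest in CL, as the shares of B and T cells were. Ccl21a was at 8.59, 12.6 and 0.234 CPM in saline, cold and CL, Cr2 at 12.4, 6.44 and 0 CPM, and Madcam1 at 0.303, 0.826 and 0.234 CPM. Madcam1 was thus near 0 in every library. The other 3 markers were highest in CL. Ccl19 was at 0.910, 2.81 and 7.50 CPM, Cxcl13 at 245, 185 and 396 CPM, and Pdpn at 89.0, 67.4 and 128 CPM. The 6 markers summed to 356, 275 and 532 CPM, mostly Cxcl13 and Pdpn, and this sum was lowest in cold. Their part in the B and T cell results was not tested.

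Every member was higher in cold than in saline B and plasma cells. Mki67 was at 57.9 CPM (49.96 to 66.6) in saline, 181 (169 to 193) in cold and 39.4 (23.3 to 62.2) in CL. Top2a was at 53.6 (46.0 to 62.1), 149.6 (139 to 161) and 41.6 CPM (25.02 to 64.9). Both genes were separated between cold and the other libraries, which overlapped each other. Ube2c was at 19.3 (14.9 to 24.6), 75.4 (67.9 to 83.6) and 13.1 CPM (4.82 to 28.6), again highest in cold. Dut was at 37.4 (31.1 to 44.5), 102 (93.0 to 111) and 41.6 CPM (25.02 to 64.9), and Mcm3 at 28.6 (23.2 to 35.0), 72.3 (65.0 to 80.3) and 45.9 CPM (28.4 to 70.2). In Mcm3 cold and CL overlapped, in Dut they did not.

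Among B-cell members with smaller ratios were the S-phase genes that resting cells also hold. Slbp was at 90.4 (80.5 to 101), 120.2 (111 to 130.3) and 91.9 CPM (66.2 to 124), Pcna at 56.0 (48.3 to 64.7), 87.4 (79.3 to 96.1) and 61.2 CPM (40.7 to 88.5), and Mcm6 at 34.4 (28.3 to 41.3), 52.6 (46.3 to 59.4) and 52.5 CPM (33.6 to 78.1). In all 3 cold lay above saline and overlapped CL. For cold over saline the log2 ratios were 1.64 (1.42 to 1.87) for Mki67, 1.97 (1.58 to 2.37) for Ube2c, 1.45 (1.16 to 1.74) for Dut, 0.64 (0.39 to 0.90) for Pcna and 0.41 (0.21 to 0.62) for Slbp. At least 2-fold higher were 24 of 32 members, all 16 G2/M genes and 8 S-phase genes, where 5.81% of all genes were. Medians were 1.00 for S-phase and 1.84 for G2/M genes, against -0.03 over all genes. The median of the 32 was 1.44, and 0.20 without cluster 25.

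In CL over saline the B and plasma cells, 237 against 1643, had no common direction. Of 29 members that passed the filter 19 were higher, and 4 were at least 2-fold lower (Ccnb1, Birc5, Cenpf and Hmmr), where 7.80% of all genes were. These 4 rest on 1 to 5 UMIs each in the CL library. For CL over cold 16 members were at least 2-fold lower, where 7.66% of all genes were, and medians were -0.67 for S-phase and -2.02 for G2/M genes. Median depth of the class was 1701, 2509 and 1570 UMIs in saline, cold and CL, so thinning kept 511, 1193 and 57 cells, with shares of 5.09%, 8.21% and 12.3% (5.08 to 23.7).

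Antibody and germinal centre genes differed between the 65 G2/M-positive cold cells that kept 2000 UMIs and the 1128 others. S1pr2, which holds B cells in the germinal centre, had a UMI in 20% (11.1 to 31.8) against 0 of 1128, which allows up to 0.266%. Jchain, the joining chain of secreted antibodies, was in 40.0% (28.0 to 52.9) against 1.95% (1.23 to 2.94). Ighd, the IgD chain of resting B cells, was in 13.8% (6.53 to 24.7) against 69.2% (66.5 to 71.9). For Jchain and Ighd the intervals were apart, and for S1pr2 the lower bound lay above what 0 of 1128 allows. Prdm1, the plasma cell factor, was in 1 of 65 cells (1.54%) against 0.709%. T cell markers were near 0 in the G2/M-positive B and plasma cells of all libraries, with 7 of 10 markers at 0 and a sum of 8.36 CPM.

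Other division genes of B and plasma cells were higher in cold too. Of 28 other mitotic genes all 28 were higher and 19 at least 2-fold, with a median of 1.28, and of 27 licensing and fork genes 23 were higher and 12 at least 2-fold, with a median of 1.00. Cdca3, a mitotic-entry gene, was at 4.22, 34.4 and 2.19 CPM in saline, cold and CL, a log2 ratio of 3.03 (2.24 to 3.93) for cold. Hmgb2, a chromatin protein of dividing cells, was at 183, 533 and 245 CPM. Klf2 was at 419, 174 and 328 CPM, lower in cold as in T cells.

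**Figure D4:**
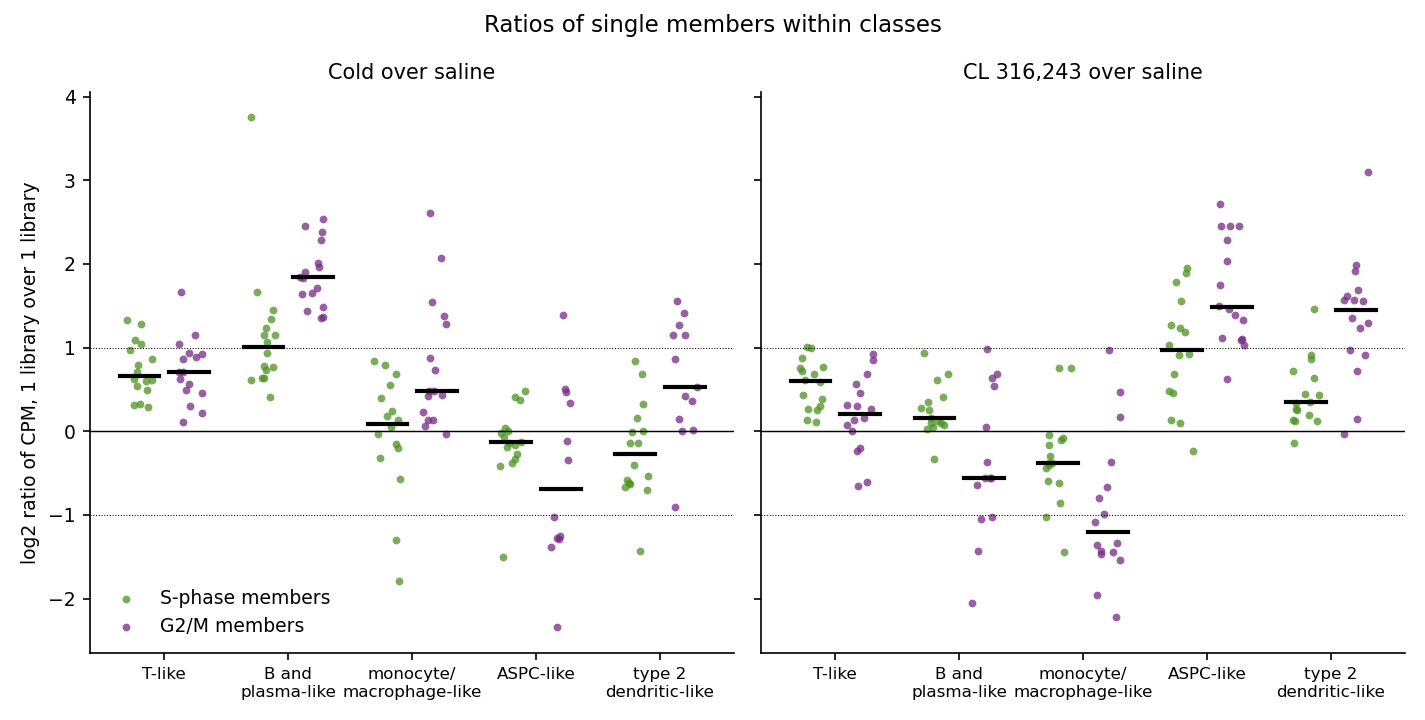
Log2 ratio of CPM of each member with at least 10 UMIs, cold over saline (left) and CL over saline (right), in 5 classes, where each point is a gene, bars are medians and dotted lines mark 2-fold. In B and plasma cells all cold ratios lie above 0, and in ASPCs 31 of the 32 CL ratios do.

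ASPCs held more of the members in the CL library. In the cold library the median level of mitotic genes was lower than in saline, while the shares of G2/M-positive cells were close. The share with a Mki67 or Top2a UMI was 2.23% (1.49 to 3.21) in saline, 2.02% (1.05 to 3.50) in cold and 5.02% (3.81 to 6.49) in CL, where CL lay above both others. The log2 ratio was 1.17 (0.52 to 1.82) for CL over saline and -0.15 (-1.11 to 0.82) for cold. G2/M-positive cells were 7 of 1255 (0.558%, 0.225 to 1.15), 3 of 595 (0.504%, 0.104 to 1.47) and 25 of 1095 (2.28%, 1.48 to 3.35). Thinned shares were 1.15%, 0.344% and 2.65%, and the ratio for CL was 1.21 (0.29 to 2.12). With doublet calls removed the ratio of the first share was 1.57 (0.83 to 2.30) for CL and turned to 0.30 (-0.72 to 1.32) for cold.

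Helicase genes were higher in CL ASPCs, while Pcna was not. Mcm3 was at 9.78 CPM (7.75 to 12.2) in saline, 7.75 (5.37 to 10.8) in cold and 23.5 (20.1 to 27.3) in CL. Mcm7, another subunit of the ring, was at 10.53 (8.41 to 13.02), 9.58 (6.90 to 12.9) and 21.5 CPM (18.3 to 25.1). In both, CL lay above saline and cold, which overlapped. Tyms, the thymidylate synthase, was at 10.9 (8.74 to 13.4), 9.58 (6.90 to 12.9) and 20.5 CPM (17.4 to 24.1), with the same order. Dut was at 22.3 (19.2 to 25.8), 31.0 (26.0 to 36.7) and 35.7 CPM (31.6 to 40.3), lowest in saline. Pcna was at 31.7 (27.9 to 35.8), 29.0 (24.1 to 34.5) and 33.8 CPM (29.8 to 38.3), and its intervals overlapped.

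The remaining ASPC members with many UMIs were less separated. Slbp was at 59.9 (54.7 to 65.5), 45.1 (39.1 to 51.9) and 50.96 CPM (45.9 to 56.4), lower in cold than in saline and the single member lower in CL. Tipin, a fork protection factor, was at 21.2 (18.1 to 24.6), 27.4 (22.7 to 32.7) and 29.1 CPM (25.3 to 33.3), with CL above saline. Rrm1, the large subunit of ribonucleotide reductase, was at 21.7 (18.6 to 25.1), 16.6 (13.05 to 20.9) and 30.3 CPM (26.5 to 34.6), with CL above both others. Among the mitotic genes Top2a was at 9.41 (7.42 to 11.8), 3.88 (2.26 to 6.21) and 20.4 CPM (17.3 to 23.9). Top2a was thus lowest in cold and highest in CL, and none of its intervals overlapped.

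For CL over saline the ratios were 1.26 (0.87 to 1.67) for Mcm3, 1.95 (1.29 to 2.65) for Gins2, 1.11 (0.71 to 1.53) for Top2a and 0.62 (0.19 to 1.06) for Mki67. All 32 members passed the filter, 31 were higher, and 23 were at least 2-fold higher, 8 S-phase genes (5 of them Mcm genes) and 15 G2/M genes without Mki67. Of all 12967 genes 6.43% were. Medians were 0.98 for S-phase and 1.48 for G2/M genes, against 0.07 over all genes. The members remained higher in cells with neither a Mki67 nor a Top2a UMI, with a median of 0.99 in place of 1.25. For CL over cold 25 members were at least 2-fold higher, where 7.74% of all genes were. For cold over saline 20 of 28 members that passed were lower, and 7 were at least 2-fold lower (Rrm2, Cdk1, Mki67, Top2a, Birc5, Cenpe and Ube2c), where 4.89% of all genes were. Hmmr, a spindle gene, went the other way at 1.40 (-0.15 to 3.03), on 7 saline and 10 cold UMIs, where 3.23% of all genes were at least 2-fold higher. These cold values rest on 114 G2/M UMIs, 67.5% of them in 3 cells.

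The ASPCs of the saline and CL libraries fell into clusters in different parts. Cluster 15, with Pi16, Smpd3 and Sema3c among its top genes, held 55.5%, 57.0% and 21.2% of the class, and cluster 9, led by Timp1, Prg4 and Lbp, held 40 saline, 0 cold and 425 CL cells. Within cluster 8, with Col5a3, Col4a1 and Col15a1 among its top genes, which held about the same part of the class in each library (30.1%, 26.7% and 29.9%), G2/M-positive cells were 0 of 378 in saline, which allows up to 0.794%. They were 3 of 159 in cold (1.89%, 0.391 to 5.41) and 13 of 327 in CL (3.98%, 2.13 to 6.70), so CL lay above what 0 of 378 allows inside this cluster. In cluster 15 they were 0.430% in saline and 0.431% in CL, and in cluster 9 they were 5% (0.611 to 16.9) and 2.12% (0.973 to 3.98).

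Markers of other lineages were read in the G2/M-positive ASPCs. In the 25 CL cells all 10 T cell markers and 5 of 7 B cell markers were at 0 (B markers summed to 318 CPM). Monocyte and macrophage markers summed to 2253 CPM against 4292 CPM in the other ASPCs of that library. These markers include Fn1, which was also a top gene of ASPC cluster 15. Their sum therefore does not separate RNA of other lineages from that of ASPCs. Which genes made up the B cell sums was not examined. In the 7 saline cells T cell markers summed to 553 CPM and B cell markers to 1002 CPM, against 15.8 and 486 CPM in the others, and 3 of the 7 were called doublets by Scrublet. With doublet calls removed the median for CL over saline was 1.46. Pi16, a marker of early progenitors, had a UMI in 36% (18.0 to 57.5) of the 25 cells and 57.8% (54.7 to 60.8) of 1033 others, and Dpp4 in 16% (4.54 to 36.1) and 31.8% (29.0 to 34.8), with overlapping intervals.

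Other division genes in CL ASPCs had the same sign. Of 27 other mitotic genes all 27 were higher and 13 at least 2-fold, with a median of 0.94, and of 27 licensing and fork genes 24 were higher and 9 at least 2-fold, with a median of 0.74. Tk1, the thymidine kinase of S phase, was at 1.61, 0.684 and 7.88 CPM, a ratio of 2.29 (1.41 to 3.28), and Tubb5, a tubulin, at 188, 215 and 377 CPM. The cell cycle brakes Btg1 (306, 194 and 158 CPM) and Cdkn1a, the p21 inhibitor (309, 171 and 182 CPM), were lower in CL, with ratios of -0.95 (-1.05 to -0.85) and -0.76 (-0.86 to -0.67).

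Monocytes and macrophages held fewer mitotic genes per cell in the CL library, and the makeup of the class differed with it. The share with a Mki67 or Top2a UMI was 4.96% (3.81 to 6.32) in saline, 7.73% (5.24 to 10.9) in cold and 4.90% (4.26 to 5.60) in CL, and all intervals overlapped. G2/M-positive cells were 17 of 1231 (1.38%, 0.806 to 2.20), 5 of 375 (1.33%, 0.434 to 3.08) and 20 of 4103 (0.487%, 0.298 to 0.752), so CL lay below saline. The log2 ratio for CL over saline was -0.02 (-0.42 to 0.39) for the first share and -1.50 (-2.43 to -0.57) for the second. After thinning they were -0.53 (-1.05 to -0.01) and -2.08 (-3.23 to -0.93).

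Mki67 was at 38.1 CPM (32.3 to 44.5) in saline, 41.9 (32.4 to 53.3) in cold and 15.1 (13.3 to 17.2) in CL. Top2a was at 27.8 (22.9 to 33.4), 30.5 (22.5 to 40.4) and 9.60 CPM (8.11 to 11.3). CL was lowest and separate in both, and saline and cold overlapped. Birc5, the survivin gene, was at 8.30 (5.74 to 11.6), 24.1 (17.1 to 33.1) and 3.92 CPM (2.99 to 5.04), with all 3 apart. The S-phase genes with most UMIs differed less. Pcna was at 71.5 (63.5 to 80.2), 69.9 (57.4 to 84.2) and 63.9 CPM (59.9 to 68.0), and Slbp at 76.6 (68.4 to 85.6), 66.7 (54.6 to 80.8) and 58.8 CPM (55.0 to 62.7). Pcna overlapped throughout, and Slbp was lower in CL than in saline.

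Mcm3 was at 26.1 (21.4 to 31.5), 34.3 (25.8 to 44.8) and 24.2 CPM (21.8 to 26.8), Mcm5 at 14.2, 14.6 and 11.6, Mcm6 at 14.2, 12.7 and 13.4, and Rrm1 at 17.8 (13.96 to 22.4), 26.0 (18.7 to 35.3) and 13.5 (11.7 to 15.4). Of these 4, Rrm1 alone had separate intervals, between cold and CL. For CL over saline the ratios were -1.33 (-1.63 to -1.03) for Mki67, -1.53 (-1.90 to -1.17) for Top2a and -0.16 (-0.35 to 0.03) for Pcna. Of 32 members 27 were lower, and 11 were at least 2-fold lower (Rrm2, Uhrf1 and 9 G2/M genes), where 13.4% of all genes were. Medians were -0.38 for S-phase and -1.21 for G2/M genes, against -0.04 over all genes. For cold over saline 24 members were higher and 5 at least 2-fold (Cdk1, Ccnb1, Ccnb2, Aurkb and Birc5), where 4.45% of all genes were, and these rest on 5 G2/M-positive cold cells that held 84.0% of the G2/M UMIs. Hells (-1.79, -4.15 to -0.09) and Uhrf1 (-1.30, -3.01 to 0.07), S-phase chromatin genes with 3 and 5 cold UMIs, were at least 2-fold lower, where 4.58% of all genes were.

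The clusters that were nearly all from the CL library held no G2/M-positive cell. Cluster 16, led by Saa3, Irg1 and Cxcl2, had 112 saline, 2 cold and 1271 CL cells, and cluster 11, with the interferon-induced genes Rsad2 and Cxcl10 among its top genes, had 26, 1 and 854. Of their 1385 and 881 cells 0 were G2/M-positive, which allows up to 0.217% and 0.341%. Cluster 12, with the resident macrophage genes Cd163, Lyve1 and Folr2 among its top genes, was 49.5% of the class in saline and 2.73% in CL, with 11 of 609 (1.81%, 0.905 to 3.21) and 2 of 112 (1.79%, 0.217 to 6.30) G2/M-positive cells. In cluster 17, with Ccr2, Clec4b1 and Ear2 among its top genes, they were 6 of 229 (2.62%, 0.967 to 5.62) and 13 of 749 (1.74%, 0.927 to 2.95). Within clusters 12 and 17 the saline and CL shares therefore overlapped. Clusters 11 and 16 still had a Mki67 or Top2a UMI in 35 and 79 cells, and none of these held 2 other G2/M genes, against 13 of 41 in cluster 12 and 17 of 66 in cluster 17. In cells without a Mki67 or Top2a UMI the median of the 32 members for CL over saline was -0.038, with cell cycle genes allowed in the clustering it was -0.066, and with doublet calls removed -0.27, in place of -0.61.

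The 39 G2/M-positive monocytes and macrophages with 2000 UMIs differed from the rest of the class in marker RNA. H2-Aa, an MHC class II chain, had a UMI in 89.7% (75.8 to 97.1) against 43.9% (42.4 to 45.3) of 4777 others, and Mrc1, the mannose receptor of resident macrophages, in 59.0% (42.1 to 74.4) against 34.5% (33.2 to 35.9). Ly6c2, a marker of classical monocytes, was in 20.5% (9.30 to 36.5) against 54.0% (52.6 to 55.5). All 3 pairs were apart, but the libraries contributed unequally to both sides. Of 26 other mitotic genes 24 were lower in CL and 14 at least 2-fold, with Kif23, a cytokinesis motor, at 20.3, 17.8 and 5.62 CPM. Ccnd2, the cyclin D2 gene of early G1, was higher, at 31.7, 19.1 and 81.8 CPM, a ratio of 1.37 (1.10 to 1.64), and Pttg1, the securin gene, at 43.4, 36.2 and 80.4 CPM.

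**Figure D5:**
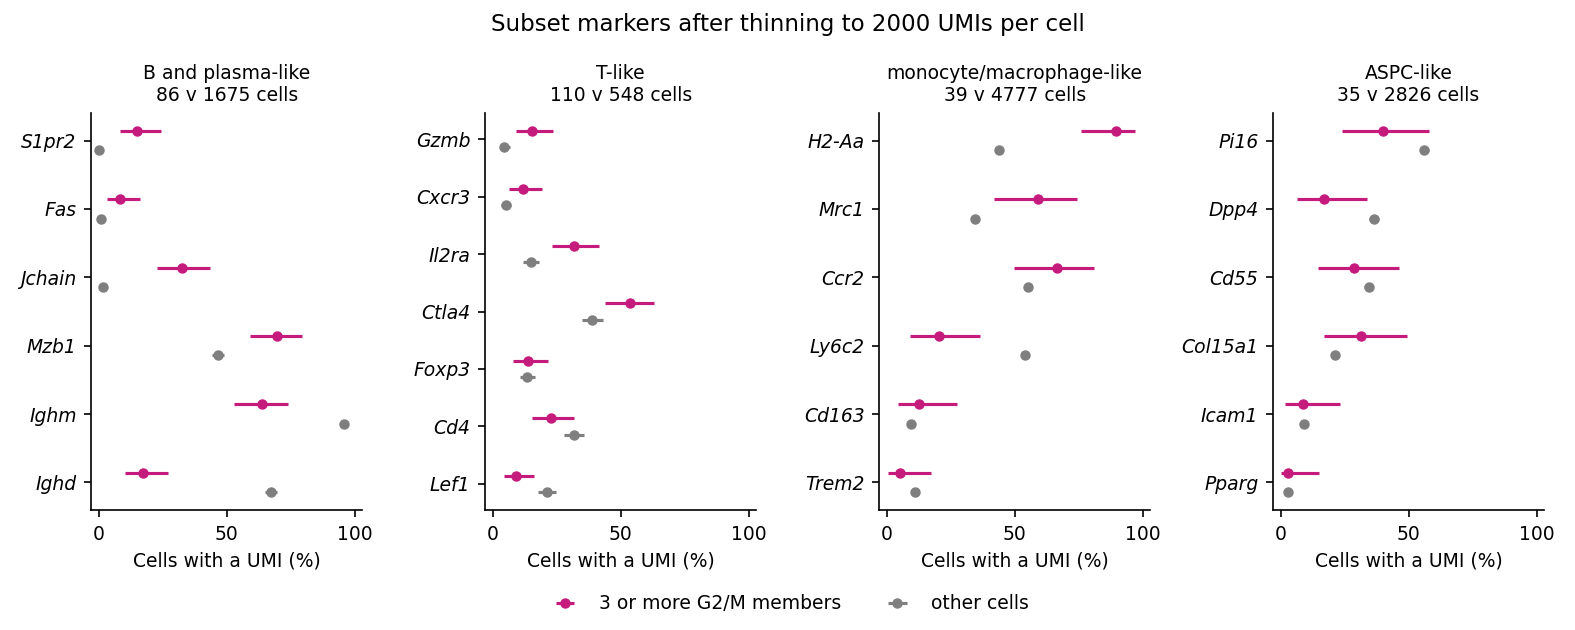
Percent of G2/M-positive and of other cells with a UMI of subset markers after thinning to 2000 UMIs, in B and plasma cells, T cells, monocytes and macrophages and ASPCs, all libraries together, with exact 95% intervals of counting error. S1pr2 and Jchain are higher and Ighd lower in G2/M-positive B and plasma cells, and Gzmb and Il2ra are higher in G2/M-positive T cells.

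Type 1 and type 2 dendritic cells held G2/M-positive cells in every library. In type 1 dendritic cells, the cross-presenting subset, G2/M-positive cells were 17.1% (12.0 to 23.3) in saline, 23.8% (15.2 to 34.3) in cold and 15.9% (9.54 to 24.2) in CL, with overlapping intervals. The first share was 24.6%, 36.9% (26.6 to 48.1) and 22.4% (14.9 to 31.5), a ratio of 0.59 (0.04 to 1.13) for cold over saline, which became 0.35 (-0.36 to 1.07) after thinning. Thinned G2/M-positive shares were 8.20% and 18.8%, a ratio of 1.19 (0.23 to 2.15). Summed G2/M genes were at 597, 1057 and 742 CPM. For cold over saline 29 of 32 members were higher and 9 at least 2-fold, where 5.28% of all genes were. The median of all genes was 0.11 in that comparison. Xcr1, which defines the subset, had a UMI in 42.6% (30.7 to 55.2) of 68 G2/M-positive cells and 45.2% (39.5 to 50.99) of 301 others.

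In type 2 dendritic cells the share with a Mki67 or Top2a UMI was close in all libraries, at 19.3% (15.1 to 23.99), 18.5% (13.3 to 24.8) and 17.0% (12.9 to 21.8). G2/M-positive cells were 6.83% (4.33 to 10.2), 4.76% (2.20 to 8.85) and 8.84% (5.86 to 12.7), with overlapping intervals. Summed G2/M genes were nevertheless higher in CL, at 267, 345 and 515 CPM, a ratio of 0.95 (0.77 to 1.13). At resolution 2, 9 saline, 0 cold and 134 CL cells (45.6% of the CL class) sat in fine cluster 14, which stayed unnamed and had Ifitm1, Klrd1 and Clec4b1 among its top genes. Fine cluster 38, also unnamed, had Treml4, Ear2 and Cx3cr1 among its top genes and 0 G2/M-positive cells. It held 8 saline, 38 cold and 4 CL cells (2.48%, 20.1% and 1.36% of the class), so the cold class values include it. Fine cluster 4, with Cd209a, held 252, 135 and 123 cells, and its summed G2/M genes were at 290, 460 and 593 CPM. Its ratio over saline was 0.67 (0.45 to 0.88) for cold and 1.03 (0.81 to 1.26) for CL. Its ratio of G2/M-positive shares was -0.10 (-1.21 to 1.01) for cold and 0.45 (-0.56 to 1.46) for CL. In the whole class Mki67 was at 89.3 (75.1 to 105), 90.01 (73.6 to 109) and 99.01 CPM (82.5 to 118), and overlapped throughout. Top2a was at 66.8 (54.6 to 80.9), 73.7 (59.0 to 91.0) and 110.0 CPM (92.5 to 129.8), with CL above both others. Birc5 was at 18.0 (11.9 to 26.0), 23.1 (15.3 to 33.7) and 71.5 CPM (57.6 to 87.8), a ratio of 1.99 (1.37 to 2.66) for CL. For CL over saline 12 of 32 members were at least 2-fold higher, Gins2 and 11 G2/M genes, where 7.39% of all genes were.

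Slbp in type 2 dendritic cells was at 50.7 (40.2 to 63.2), 90.9 (74.4 to 109.9) and 68.4 CPM (54.8 to 84.3), where cold lay above saline and overlapped CL. Pcna was at 70.0, 63.4 and 77.0, Mcm3 at 47.5, 47.1 and 57.4, Dut at 46.2, 42.0 and 55.0 and Mcm7 at 41.1, 26.6 and 47.1 CPM. None of the last 4 had separate intervals between libraries. Among those with a Mki67 or Top2a UMI, the part with at least 2 other G2/M genes was 32.3% (20.9 to 45.3) in saline, 25.7% (12.5 to 43.3) in cold and 50% (35.5 to 64.5) in CL.

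Mature dendritic cells and endothelial cells held little mitotic RNA. In mature dendritic cells Mki67 was at 39.5 (31.0 to 49.6), 55.7 (43.8 to 70.0) and 46.5 CPM (30.1 to 68.7), and Top2a at 11.7 (7.36 to 17.8), 10.55 (5.77 to 17.7) and 7.45 CPM (2.03 to 19.1). Slbp was at 51.8, 63.3 and 61.4 and Pcna at 28.8, 41.4 and 39.1 CPM. No library stood apart for any of the 4. In endothelial cells the summed G2/M genes rest on 15, 53 and 38 UMIs, and G2/M-positive cells were 0 of 302 in saline (which allows up to 0.993%), 2 of 239 in cold and 1 of 277 in CL.

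In endothelial cells Slbp and Pcna were lower in the CL library. Slbp was at 95.9 CPM (76.5 to 119) in saline, 77.3 (60.9 to 96.8) in cold and 54.5 (39.0 to 74.3) in CL. Pcna was at 71.9 (55.3 to 92.1), 49.8 (36.9 to 65.9) and 27.3 CPM (16.7 to 42.1). Both were separate between saline and CL, with cold between. The ratios were -0.81 (-1.40 to -0.25) for Slbp and -1.40 (-2.20 to -0.65) for Pcna, and 2 of 12 S-phase members that passed the filter were at least 2-fold lower (Pcna and Rrm1), where 7.80% of all genes were. The other 6 genes with most UMIs (Mcm3, Dut, Mcm6, Tipin, Rrm1 and Mcm4) had 6 to 36 UMIs per library, with intervals that overlapped between saline and CL. Of the 12 S-phase members 4 were higher, Mcm5 most at 0.77 (-0.77 to 2.40). The 2 G2/M genes that passed were at least 2-fold higher, Top2a at 2.13 (0.21 to 4.61) and Mki67 at 1.48 (-0.65 to 4.06), on 3 saline UMIs each, where 7.37% of all genes were.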

How the data were processed

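RNA of the stromal vascular fraction was measured in 3 libraries by droplet sequencing with UMIs, 1 library per treatment. The authors deposited matrices of UMI counts per gene and barcode, made with Cell Ranger 3.0.2 per the file headers, against mm10 per the submitters' processing notes. The libraries held 25875379 saline, 19899223 cold and 29323106 CL UMIs in 7674, 5050 and 7943 barcodes. Barcodes under 500 genes (1283, 1007 and 1147) and, of the rest, those over 15% mitochondrial UMIs (120, 181 and 91) were left out. The kept barcode sequences that occur in another library too were 16, 11 and 13. From 2000 variable genes without cell cycle genes, 30 principal components and 15 neighbours gave Leiden clusters (resolution 1; scanpy 1.11.5, leidenalg 0.10.2, Python 3.11.15), named from lineage markers with at least 3 detected. Names are rebuilt here and may differ from the authors' own.

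Scrublet called 86, 4 and 64 doublets (1.37%, 0.104% and 0.955%). The cold rate is too low for the caller to have worked there, so calls were kept in the main values and removed as an alternative. Counts were summed per class and library. With 1 library per group no test was run. Intervals are exact Clopper-Pearson (shares), exact Poisson (CPM), conditional binomial (level ratios) and normal on the log scale (share ratios), computed with scipy 1.17.1, and cover counting error only. A share of 0 is given the limit of 3 counts. Genes with at least 10 UMIs in the 2 libraries were compared, and 2-fold is a description of size. Members were written out singly in classes with at least 100 cells in each library, up to 8 with most UMIs per class, and type 1 dendritic and NK cells by sums only. Of each other pathway list, genes with most UMIs or farthest from the list median were named. Further members outside this rule (Birc5, and in ASPCs Top2a, Mki67 and Gins2) and the clusters were singled out after their values were seen. The members and gene lists were chosen with earlier results of these data known. Alternatives were 2 Mki67 and Top2a UMIs, 3 G2/M genes, thinning to 2000 UMIs, 20 UMIs per gene, a mean of per-cell CPM, totals without mitochondrial and ribosomal genes, at most 5% mitochondrial UMIs, clustering with cell cycle genes, and resolution 2. The scripts were tested on simulated data.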

Additional observations from a re-analysis of the deposited data

Results flagged for a closer look

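The same contrast had opposite signs in different classes. For CL over saline the median log2 ratio of the G2/M genes was 1.48 in ASPCs and -1.21 in monocytes and macrophages. For cold over saline it was 1.84 in B and plasma cells and -0.68 in ASPCs. The ASPC value for cold rests on few G2/M UMIs, and G2/M-positive ASPCs were 0.558% in saline and 0.504% in cold. With doublet calls removed, ASPCs with a Mki67 or Top2a UMI were 1.64% in saline and 2.02% in cold, with overlapping intervals. These differences between classes were not tested, since each treatment has 1 library.

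Barcodes left out by the filters also held division genes. UMIs of at least 3 G2/M genes were found in 14 of 1188 left-out cold barcodes (1.18%, 0.646 to 1.97) and 11 of 1238 left-out CL barcodes (0.889%, 0.444 to 1.58), above the saline value of 6 of 1403 (0.428%, 0.157 to 0.928), with overlapping intervals. Among barcodes over 15% mitochondrial UMIs alone they were 4 of 120 in saline, 11 of 181 in cold and 7 of 91 in CL.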

How the results depend on the processing

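Values are log2 ratios. Shares with a Mki67 or Top2a UMI kept within their interval in 41 of 60 recomputed values for T cells, B and plasma cells, monocytes and macrophages and ASPCs. With at least 2 UMIs, the ratio was 1.201 in T cells for cold, and in monocytes and macrophages -0.87 for cold, a reversed sign, and -1.51 for CL. With at least 3 G2/M genes it was 1.21 and 1.17 in T cells (cold, CL), 2.14 in B and plasma cells for cold, 2.03 in ASPCs for CL, -1.50 in monocytes and macrophages for CL and -0.051 there for cold, reversed. Thinned to 2000 UMIs it was 0.34 in T cells for cold, 0.69 and 1.27 in B and plasma cells (cold, CL), -0.53 in monocytes and macrophages for CL and -1.74 in ASPCs for cold. With at most 5% mitochondrial UMIs it was -0.12 in T cells for CL, reversed, and -0.45 in monocytes and macrophages for CL. Without cluster 25, added after seeing the data, B and plasma cells gave 0.91 for cold, and thinned as well -0.074, reversed, for cold and 1.29 for CL.

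For the same classes as the shares, medians of the 32 members stayed close in 38 of 66 recomputed values. As a mean of per-cell CPM they were 0.83 and 0.70 in T cells (cold, CL), 0.95 and -0.14 in B and plasma cells, and -0.024, reversed, and -0.50 in monocytes and macrophages. Without the cells holding Mki67 or Top2a they were 0.21 and 0.51 in T cells, 0.23 in B and plasma cells for cold, -0.0076, reversed, and -0.038 in monocytes and macrophages, 0.0015, reversed, and 0.99 in ASPCs, and -0.14, reversed, in type 1 dendritic cells for cold. In the same cells the cold ratios of Dut (-0.027) and Mcm6 (-0.32) in T cells were reversed. With at most 5% mitochondrial UMIs medians were -0.025 and -0.35 in T cells, both reversed, 0.48 and -0.79 in B and plasma cells, 0.13 and -0.88 in monocytes and macrophages and -0.52 in ASPCs for cold. That setting left few lymphocytes, 88, 54 and 66 T cells and 38, 33 and 24 B and plasma cells in saline, cold and CL. A cluster led by Timp1, Prg4 and Cxcl5 (23, 0 and 367 cells) stayed unnamed there and so outside the ASPCs. In monocytes and macrophages they were 0.71 and -0.27 with Scrublet calls removed, 0.18 and -0.066 with cell cycle genes in the clustering, 0.44 for cold at resolution 2 and -0.51 for CL with 20 UMIs. ASPCs gave 1.46 for CL with Scrublet calls removed, and B and plasma cells 0.20 for cold without cluster 25. The cause was not tested, except that cluster 25 and the positive cells were left out by construction. In the other classes recomputed, type 1 dendritic cells among them, 24 medians stayed close, 23 moved and 1 was reversed. With at most 5% mitochondrial UMIs 5 of those medians moved and 1 stayed close.

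Ratios of Mki67 and Top2a, and of Ube2c in T cells, were not run without the positive cells. No paired analysis was possible because each treatment has 1 library. Few G2/M UMIs limit endothelial cells (15, 53 and 38 in saline, cold and CL), mature dendritic cells (141, 133 and 40), CL B and plasma cells (83) and cold ASPCs (114).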
